A study of Mus musculus with 7 samples.

Results

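The chemokine CXCL12 and the receptors that bind it are described here in outflow tracts (OFTs) of mouse embryos at embryonic day 11.5. The set was defined by name and holds the ligand *Cxcl12*, its signaling receptor *Cxcr4*, the atypical receptor *Ackr3* (also known as *Cxcr7*) and the related ligand *Cxcl14*. Of these 4 names, 3 were found among the 14732 genes of the deposited values, and *Cxcl14* was not analysed here. The OFT joins the ventricles of the embryonic heart to the aortic sac, and each library was made from polyadenylated RNA of 1 pool of OFTs. There were 3 control (WT) pools, numbered 3, 4 and 5, and 4 Gata6STOP/+ pools, numbered 1, 3, 4 and 5. The Gata6STOP/+ embryos carry a CRISPR-Cas9 frameshift in exon 2 of 1 copy of *Gata6*, which creates a premature stop codon. The mutant line goes back to a single founder that was backcrossed to C57BL/6, so that all Gata6STOP/+ pools share the same edited allele. The reagent list of the study sets *Mib1* mutant lines beside the Gata6STOP entry, whereas the methods give C57BL/6 embryos, and the labels give no *Mib1* genotype for the pools. The series describes 3 pools per genotype, each of 4 pairs of OFTs. The labels give 4 Gata6STOP/+ pools, and all 7 pools were used. The labels do not say whether pools shared litters, and *P*-values measure only the spread between these pools.

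CXCL12 is a secreted chemokine that guides migrating cells. It activates CXCR4, a G protein-coupled receptor that signals through inhibitory G proteins and is then desensitized by GRK kinases and arrestins. ACKR3 binds the same ligand but recruits arrestin without classical G protein signaling, and it internalizes and degrades CXCL12, so that it limits the ligand available to CXCR4. In the heart, this axis is known for its part in semilunar valve formation and in coronary artery growth. *Gata6* encodes a zinc finger transcription factor of the GATA family.

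The promoters of the 3 genes were compared first. All 3 genes were matched to RefSeq promoter windows on GRCm38.p6, each reaching from 250 bases before the annotated start to 50 bases after it. TATAAA, a motif chosen after the windows had been read and searched on both strands, matched in *Ackr3* and *Cxcr4* but not in *Cxcl12*, and 13.6% of 32851 mouse promoter windows held it. In *Cxcr4*, the matches to TATAAA on the 2 strands overlap each other. The GATA motif was searched too, with 1 match in *Cxcr4* and 0 in *Ackr3* and *Cxcl12*, and 57.9% of windows held it. Longer forms of this motif had 0 matches in each of the 3 genes, and 29.8% of windows held one, so most windows had none. The stretches below show TATAAA in both receptor genes, with *Cxcl12* beside them. Counted from the start, it lay at −8 to −3 in *Ackr3*. On the gene strand of *Cxcr4* it lay at −30 to −25, so the positions differed. The stretches cover −30 to −1 for *Ackr3* and *Cxcl12* and −40 to −11 for *Cxcr4*. They run 5′ to 3′ on the strand of the gene, and capitals mark TATAAA. A match or its absence in these windows says nothing about binding of any factor.
*Ackr3*, chr1:90203950-90203979, plus strand: agaggcactttcccgcagtgtaTATAAAag
*Cxcr4*, chr1:128592310-128592339, minus strand: agcgtgttttTATAAAagtccggttcgggc
*Cxcl12*, chr6:117168505-117168534, plus strand, no match: ccccttgatgagccccgccccgccccgcct

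Values are in CPM, read counts scaled to a common library size, after TMM normalization. The pools had 17783655 to 34467710 reads on the listed genes, with the lowest depth in control replicate 5 and the highest in Gata6STOP/+ replicate 5. Groups were compared with limma on log2(CPM + 0.5) over all 14732 genes, and an adjusted *P*-value under 0.05 was called. By this rule 0 genes were called (0% of those tested), and at an unadjusted *P*-value under 0.05 there were 572 genes with lower and 615 with higher values in Gata6STOP/+ pools. *Gata6* itself had a mean of 286±28.9 CPM (s.d., *n*=3) in control and 227±28.7 CPM (s.d., *n*=4) in Gata6STOP/+ pools, with overlapping groups. The difference on the log2 scale was −0.34 (standard error 0.099), at an adjusted *P*-value by limma of 0.389. The overlap came from Gata6STOP/+ replicate 1, at 268 CPM, where the lowest control had 257 CPM and the other Gata6STOP/+ pools 203 to 219 CPM. Without this pool the log2 fold change of *Gata6* was −0.42, and without control replicate 3 it was −0.27. These values do not separate reads of the edited copy from those of the intact copy. In pooled tissue, fewer cells of a type and less RNA per cell cannot be told apart, and this holds for every gene below. Marker lists were searched among the listed genes. All 8 myocardial and all 5 smooth muscle markers were listed, as were all 10 markers of endothelium and endocardium. All 10 markers of macrophages and other leukocytes, all 7 erythroid markers and 5 of 6 neuron markers were listed too. Being listed thus shows detection and does not tell the OFT from other tissue. Of the pharyngeal and foregut epithelium markers 3 of 6 were listed, and *Epcam*, *Cdh1* and *Foxa2* were not among the listed genes.

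*Ackr3* had lower values and *Cxcr4* higher values in every Gata6STOP/+ pool than in every control pool, whereas *Cxcl12* had overlapping groups. Neither receptor passed the threshold over all genes. The receptors lay near each other in the ranking by unadjusted *P*-value, with *Ackr3* 169th and *Cxcr4* 200th of 14732 genes, and *Cxcl12* was 12921st. Being lower in every Gata6STOP/+ pool was found for 4.16% of all genes, and being higher in every Gata6STOP/+ pool for 4.31%. On reads recovered from the CPM values and without the replicate number in the fit, none of the 3 members was called by edgeR's quasi-likelihood test (0 genes, 0%, with 1177 at *P*-values under 0.05 before adjustment), by its likelihood ratio test (105 genes, 0.713%) or by DESeq2 (88 genes, 0.597%).

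**Figure D1:**
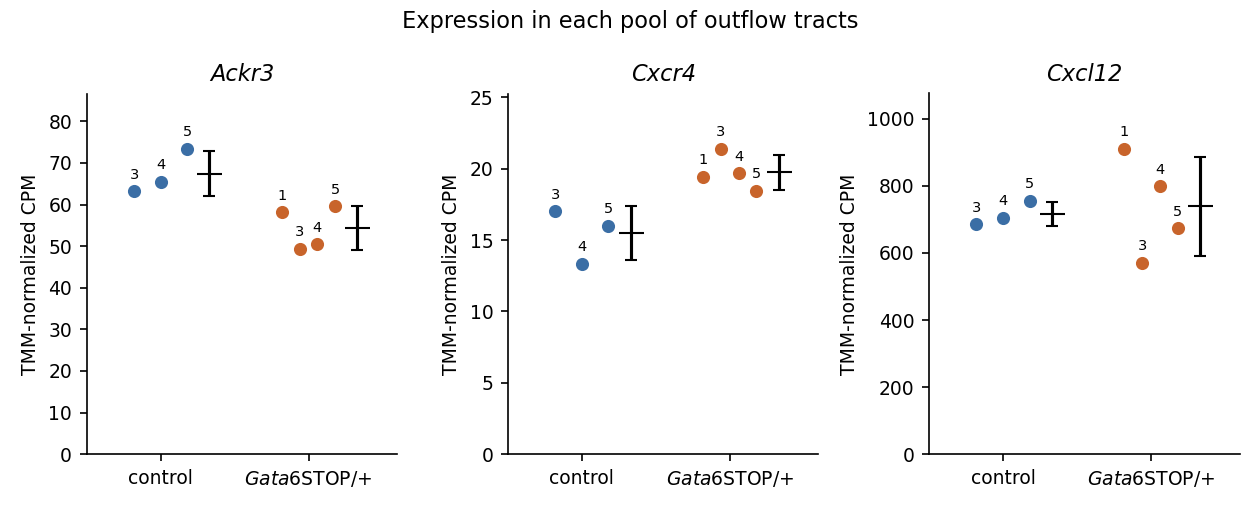
TMM-normalized CPM of *Ackr3*, *Cxcr4* and *Cxcl12* in each pool, with the replicate number above each point and the mean with its s.d. beside each group (3 control and 4 Gata6STOP/+ pools). For *Ackr3* the Gata6STOP/+ points end at 59.5 CPM, under the lowest control at 63.2 CPM, for *Cxcr4* they start at 18.5 CPM, over the highest control at 17.02 CPM, and for *Cxcl12* they spread on both sides of the controls.

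*Ackr3* (ENSMUSG00000044337) encodes the scavenging receptor and is located on chromosome 1 of GRCm38, plus strand, from 90203980 to 90216751. In the control pools it was at 63.2 CPM (replicate 3), 65.5 CPM (replicate 4) and 73.5 CPM (replicate 5). In the Gata6STOP/+ pools it was at 58.1 CPM (replicate 1), 49.4 CPM (replicate 3), 50.5 CPM (replicate 4) and 59.5 CPM (replicate 5). Every Gata6STOP/+ pool was below every control pool, and the gap between the nearest pools was 3.65 CPM, or 5.77% of the lowest control value. The means were 67.4±5.40 CPM (s.d., *n*=3) in control and 54.4±5.19 CPM (s.d., *n*=4) in Gata6STOP/+ pools, so that the latter was 80.7% of the former. The log2 fold change was −0.31 (standard error 0.085, 95% interval −0.50 to −0.12, limma unadjusted *P*-value=0.00407, adjusted *P*-value=0.351). As a ratio this is 0.808, with an interval from 0.709 to 0.920. An exact permutation test of the means, two-sided, gave *P*=0.0571, which is the smallest value that 35 groupings of 3 and 4 pools allow. Between 1241 and 2048 reads stood behind each value, and counting alone would give a spread of 2.21% to 2.84% of the value. The spread between pools was larger, at 8.02% of the mean in control and 9.55% in Gata6STOP/+ pools.

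Marker lists for the cells that could hold *Ackr3* were set beside these values. The 8 cushion mesenchyme markers (5 of them lower in Gata6STOP/+ pools) summed to 1521 to 1997 CPM in control and 1429 to 1704 CPM in Gata6STOP/+ pools, and the 5 listed neural crest and glia markers of 7 to 106 to 141 CPM and 88.5 to 110 CPM. Both ranges thus reached lower in Gata6STOP/+ pools, with overlap. Relative to the mesenchyme sum, *Ackr3* was at 3.17%, 4.30% and 3.99% in control replicates 3, 4 and 5 and at 3.41%, 3.46%, 3.11% and 3.74% in Gata6STOP/+ replicates 1, 3, 4 and 5, and the groups overlapped. They also overlapped relative to the endothelial, myocardial, leukocyte and neural crest sums. The part of cell composition in the *Ackr3* difference was not tested.

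*Cxcr4* (ENSMUSG00000045382) encodes the signaling receptor and is located on chromosome 1, minus strand, from 128588199 to 128592293. The control pools had 17.02 CPM (replicate 3), 13.4 CPM (replicate 4) and 16.02 CPM (replicate 5). In Gata6STOP/+ replicates 1, 3, 4 and 5 it was at 19.4, 21.4, 19.7 and 18.5 CPM. Every Gata6STOP/+ pool was above every control pool, with 1.44 CPM between the nearest pools, or 8.47% of the highest control value. Control replicate 4 had the lowest value and Gata6STOP/+ replicate 3 the highest. The means were 15.5±1.90 CPM (s.d., *n*=3) and 19.7±1.23 CPM (s.d., *n*=4), the latter being 128% of the former. The log2 fold change was 0.35 (standard error 0.099, 95% interval 0.13 to 0.57, limma unadjusted *P*-value=0.00498, adjusted *P*-value=0.366), a ratio of 1.27 with an interval from 1.09 to 1.48. The exact two-sided permutation test again gave its smallest possible value, *P*=0.0571. With 286 to 635 reads per pool, counting alone would give a spread of 3.97% to 5.91% of the value. The spread between Gata6STOP/+ pools was 6.21% of the mean, close to this range, and that between control pools was 12.3%. Without control replicate 4 the log2 fold change of *Cxcr4* was 0.25, against 0.42 without control replicate 3.

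*Cxcr4* is known from endothelial and hematopoietic cells, so the marker lists of both were compared. The 10 markers of endothelium and endocardium (7 of them higher in Gata6STOP/+ pools) summed to 864 to 1205 CPM in control and 950 to 1151 CPM in Gata6STOP/+ pools. The 10 markers of macrophages and other leukocytes (2 of them higher) summed to 55.1 to 76.8 CPM in control and 42.0 to 102 CPM in Gata6STOP/+ pools, and the highest sum was in Gata6STOP/+ replicate 3, the pool with the most *Cxcr4*. Control replicate 4, the pool with the least *Cxcr4*, had the highest endothelial sum. Relative to the endothelial sum, *Cxcr4* was at 1.75%, 1.11% and 1.85% in control replicates 3, 4 and 5 and at 1.79%, 2.25%, 1.71% and 1.82% in Gata6STOP/+ replicates 1, 3, 4 and 5. On this scale the groups overlapped, as they did relative to the leukocyte sum. Relative to the mesenchymal, myocardial and neural crest sums they did not overlap. The 7 erythroid markers all had log2 fold changes above 0, with a median of 0.40, and summed to 2143 to 5170 CPM in control and 2431 to 6441 CPM in Gata6STOP/+ pools. These ranges overlapped, and the highest erythroid sum was in Gata6STOP/+ replicate 5, which had the least *Cxcr4* of the Gata6STOP/+ pools. What share of the *Cxcr4* difference goes with cell composition was not tested.

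*Cxcl12* (ENSMUSG00000061353) encodes the ligand and is located on chromosome 6, plus strand, from 117168535 to 117181367. The control pools had 686 CPM (replicate 3), 705 CPM (replicate 4) and 756 CPM (replicate 5). In Gata6STOP/+ replicates 1, 3, 4 and 5 it was at 911, 571, 799 and 673 CPM. The Gata6STOP/+ pools thus lay on both sides of the controls, with replicates 1 and 4 above all of them and replicates 3 and 5 below all of them. The means were 716±36.1 CPM (s.d., *n*=3) and 739±148 CPM (s.d., *n*=4). The difference on the log2 scale was 0.02 (standard error 0.134), at an adjusted *P*-value by limma of 0.979, and the exact permutation test (two-sided) gave *P*=0.80. The 95% interval ran from −0.27 to 0.32, or from a ratio of 0.8286 to 1.25. It overlapped the intervals of *Ackr3* (−0.50 to −0.12) and *Cxcr4* (0.13 to 0.57), and the genes were not tested against each other. Between 13500 and 25982 reads stood behind each value, and counting would give a spread of at most 0.861%. The spread between pools was 5.05% of the mean in control and 20.1% in Gata6STOP/+ pools, and the difference in spread was not tested.

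The order of *Cxcl12* over the Gata6STOP/+ pools ran against that of the myocardial markers at both ends. The sum of the 8 myocardial markers was 15332 CPM in Gata6STOP/+ replicate 1, where *Cxcl12* was highest, and 22272 CPM in replicate 3, where it was lowest. In replicates 4 and 5 the sums were 19891 and 19618 CPM, and the control pools had 19214 to 21749 CPM. Whether the muscle content of the pools bears on *Cxcl12* was not tested. Relative to each of the 5 marker sums compared, the groups of *Cxcl12* overlapped.

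Levels were then compared between the genes per kilobase of exon (CPM per kb), with exon lengths from the GENCODE M21 annotation of GRCm38. The ligand was the most abundant. In control pools *Cxcl12* was at 87.5±4.42 CPM per kb (s.d., *n*=3), above all but 3.27% of the genes with a length. *Ackr3* was at 20.1±1.61 CPM per kb, with 17.5% of genes above it, and *Cxcr4* at 8.55±1.05 CPM per kb, with 38.2% above it. In Gata6STOP/+ pools the levels were 90.3±18.1, 16.2±1.55 and 10.9±0.679 CPM per kb (s.d., *n*=4), respectively. The order of the 3 genes was the same in every pool, and no neighbours in this order overlapped. With the length of the longest transcript in place of all exons, the control means were 127, 22.0 and 8.57 CPM per kb, in the same order.

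Since both receptors bind the same ligand, the ratio of their levels per kb was taken within each pool, where the scaling of the pool cancels. The ratio of *Ackr3* to *Cxcr4* was 2.005, 2.65 and 2.48 in control replicates 3, 4 and 5. It was 1.62, 1.25, 1.38 and 1.74 in Gata6STOP/+ replicates 1, 3, 4 and 5. Transcripts of the scavenging receptor outnumbered those of the signaling receptor per kb in all 7 pools, and the ratio was lower in every Gata6STOP/+ pool than in every control pool. The mean log2 ratio was 1.24±0.209 (s.d., *n*=3) in control and 0.57±0.218 (s.d., *n*=4) in Gata6STOP/+ pools. These values follow from those of the 2 genes, and no separate test was made. The ratio of *Cxcl12* to *Ackr3* was 4.44, 4.41 and 4.21 in control replicates 3, 4 and 5 and 6.42, 4.73, 6.48 and 4.63 in Gata6STOP/+ replicates 1, 3, 4 and 5. It was therefore nearly constant over the control pools, where both genes were lowest in replicate 3 and highest in replicate 5. It was higher in each Gata6STOP/+ pool, by little in replicates 3 and 5. This ratio also follows from the values of its genes, of which only *Ackr3* had groups without overlap, and it was not tested. How many other pairs of genes have ratios without overlap was not computed. The ratio of *Cxcl12* to *Cxcr4* ran from 8.91 to 11.7 in control and from 5.89 to 10.4 in Gata6STOP/+ pools, with overlap.

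**Figure D2:**
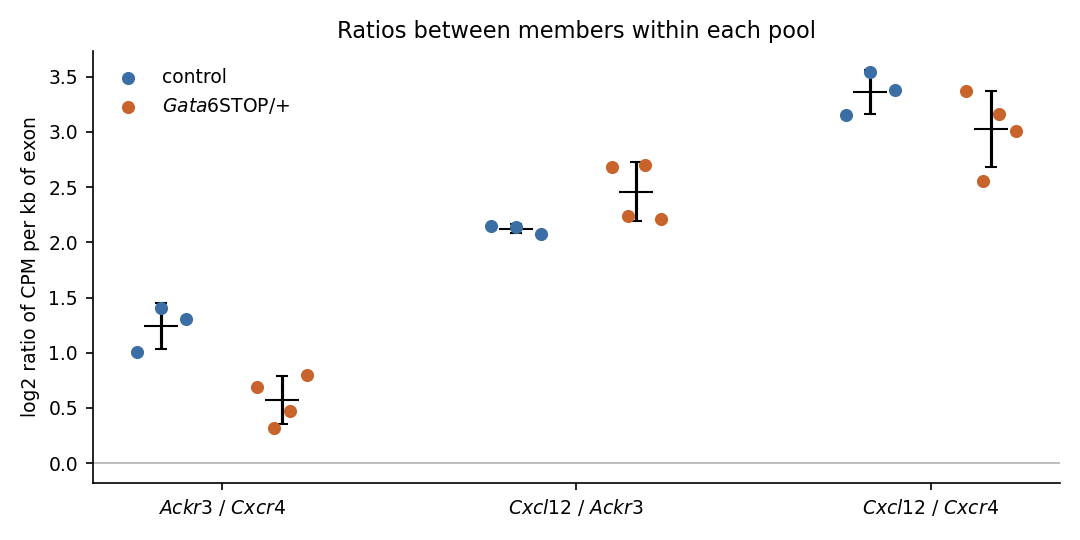
Log2 ratios of CPM per kb of exon between *Ackr3*, *Cxcr4* and *Cxcl12* within each pool, with group means and s.d. (control in blue, *n*=3; Gata6STOP/+ in orange, *n*=4). The *Ackr3* to *Cxcr4* ratio centres on 1.24 in control and 0.57 in Gata6STOP/+ pools without overlap, and the *Cxcl12* to *Cxcr4* ratios overlap.

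The remaining chemokine system was described with 4 lists of genes. Of 36 names of other chemokine ligands, 10 were among the listed genes, and 0 of these 10 had an adjusted or an unadjusted *P*-value under 0.05. Values were higher in Gata6STOP/+ pools for 7 and lower for 3, with a median log2 fold change of 0.08, where the median of all genes was −0.00073. *Pf4* and *Ppbp*, the platelet chemokines, differed by 0.16 (standard error 0.256) and 0.22 (standard error 0.318) on the log2 scale. *Ccl9*, a monocyte-attracting chemokine, had 0.34 (standard error 0.377), and *Ccl25*, a ligand of CCR9, had 0.09 (standard error 0.149). *Ccl9* was highest in Gata6STOP/+ replicate 3, at 5.58 CPM, the pool with the highest leukocyte sum, and without this pool its log2 fold change was −0.050. In each of these genes the groups overlapped, and the limma adjusted *P*-values were between 0.856 and 0.909. All 10 other ligands were expressed at far lower levels than *Cxcl12*, none reaching a mean of 14 CPM.

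Among 22 names of other chemokine receptors 6 were listed, all expressed, with lower values in Gata6STOP/+ pools for 5 and a median log2 fold change of −0.10. None was called over all genes. *Gpr182*, an endothelial atypical receptor that also takes up CXCL12, had the smallest unadjusted *P*-value of them. The control pools had 19.0 CPM (replicate 3), 37.4 CPM (replicate 4) and 18.4 CPM (replicate 5). In Gata6STOP/+ replicates 1, 3, 4 and 5 the values were 11.4, 18.4, 14.0 and 16.2 CPM, and replicate 3 met the lowest control. The log2 fold change was −0.66 (standard error 0.231, limma unadjusted *P*-value=0.0162, adjusted *P*-value=0.497), beside a share of 3.88% of all genes with lower values at this unadjusted threshold. Control replicate 4 stood above the other pools and also had the highest endothelial sum, 1205 CPM. Without it the log2 fold change of *Gpr182* was −0.33. The Duffy receptor *Ackr1*, another atypical receptor, was near the detection filter at 1.39±0.381 CPM in control and 1.12±0.234 CPM in Gata6STOP/+ pools. The fractalkine receptor *Cx3cr1*, known from macrophages, differed by 0.08 (standard error 0.210) on the log2 scale. *Cx3cr1* was highest in Gata6STOP/+ replicate 3, at 16.8 CPM, where the leukocyte markers were also highest.

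**Figure D3:**
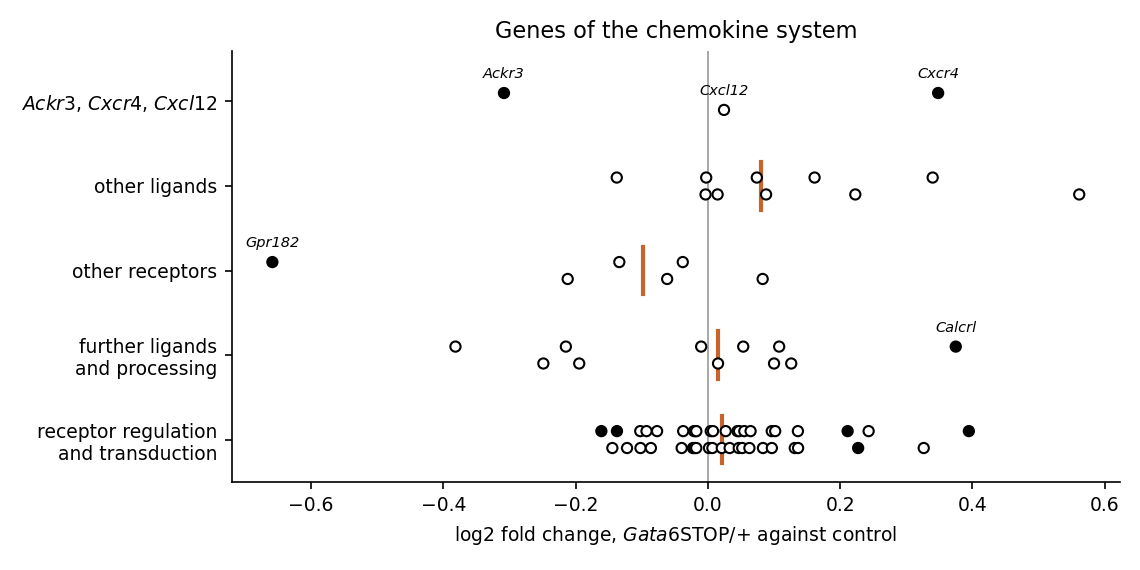
Log2 fold change of *Ackr3*, *Cxcr4* and *Cxcl12* (top row) and of the listed genes of 4 chemokine-system lists, 1 point per gene. Filled points have a limma unadjusted *P*-value under 0.05, orange bars are list medians, and 0 points passed the threshold over all genes. *Gpr182* lies farthest to the left at −0.66.

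The list of further ligands and of enzymes that process CXCL12 had 11 listed genes of 16, with higher values for 6, lower values for 5 and a median log2 fold change of 0.02. ACKR3 also takes up adrenomedullin, the peptide encoded by *Adm* that acts on the receptor encoded by *Calcrl*. *Calcrl* had 45.7 CPM (replicate 3), 62.2 CPM (replicate 4) and 55.0 CPM (replicate 5) in the control pools. In Gata6STOP/+ replicates 1, 3, 4 and 5 the values were 82.5, 61.9, 69.2 and 68.2 CPM. Only Gata6STOP/+ replicate 3 lay inside the control range. Its log2 fold change was 0.37 (standard error 0.113, limma unadjusted *P*-value=0.00716, adjusted *P*-value=0.401), with 4.17% of all genes having higher values at an unadjusted *P*-value under 0.05. *Mif*, a cytokine that also binds CXCR4, had a log2 fold change of −0.19 (standard error 0.119). *Hmgb1*, whose protein forms a complex with CXCL12, had 0.13 (standard error 0.075), and *Dpp4*, which cleaves the N terminus of CXCL12, had −0.38 (standard error 0.277). The limma adjusted *P*-values of *Mif*, *Hmgb1* and *Dpp4* were between 0.722 and 0.779, and their groups overlapped. Without control replicate 4 the log2 fold change of *Dpp4* was −0.12, and without control replicate 3 those of *Mif* and *Hmgb1* were −0.093 and 0.052.

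For receptor regulation and signal transduction, 43 of 44 names were listed, and 0 were called over all genes. The list median was 0.02, with 26 genes higher and 17 lower in Gata6STOP/+ pools. Every Gata6STOP/+ pool was below every control pool for 4 of the 43, or 9.30%, against 4.16% of all genes, and above for 2, or 4.65%, against 4.31%. *Gnai2*, which encodes an inhibitory G protein subunit, had means of 455±15.1 CPM (s.d., *n*=3) for control and 407±19.5 CPM (s.d., *n*=4) for Gata6STOP/+ pools (log2 fold change −0.16, standard error 0.062, limma adjusted *P*-value=0.534). The others of the 4 were *Grk2*, a receptor kinase, *Hgs*, which sorts ubiquitinated receptors, and the kinase gene *Mapk3*, named after their values were seen, with log2 fold changes of −0.12, −0.14 and −0.08. The 2 genes above all controls were *Wwp1*, a ubiquitin ligase gene at 68.5±4.59 and 79.3±3.67 CPM (log2 fold change 0.21, standard error 0.066, limma adjusted *P*-value=0.420), and *Elmo1*, which links chemokine receptors to RAC, at 16.6±1.598 and 19.5±0.963 CPM (log2 fold change 0.23, standard error 0.089, limma adjusted *P*-value=0.542). *Pik3cg*, a lipid kinase gene activated by G protein-coupled receptors, had a log2 fold change of 0.39 (standard error 0.161) with overlapping groups.

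The genes whose pattern over the 7 pools was nearest to each member were then identified. Likeness was the root mean square difference between 2 genes' log2 values after each was centred on its own mean, over the 11626 genes whose mean reached 5 CPM. For *Ackr3* these were *Rell1*, at 0.060, the receptor tyrosine kinase gene *Mst1r*, at 0.065, and the transferrin gene *Trf*, at 0.070, where the median over all genes compared was 0.214. *Rell1* and *Trf* were also lower in every Gata6STOP/+ pool, with log2 fold changes of −0.26 and −0.28. Nearest to *Cxcr4* were *Rapgef4*, an exchange factor gene activated by cyclic AMP, at 0.041, the calcium channel gene *Cacna1d*, at 0.061, and the phospholipase A2 receptor gene *Pla2r1*, at 0.072, against a median of 0.230. *Rapgef4* and *Cacna1d* were higher in every Gata6STOP/+ pool, with log2 fold changes of 0.34 and 0.30, and both were lowest in control replicate 4, as *Cxcr4* was. *Cxcl12* was followed by the microfibril gene *Mfap4*, at 0.050, the semaphorin gene *Sema6c*, at 0.058, and the matrix protease gene *Mmp2*, at 0.061, against a median of 0.221. All of them were highest in Gata6STOP/+ replicate 1 and lowest in replicate 3, with log2 fold changes between −0.01 and 0.03. By limma, the adjusted *P*-values of these 9 genes lay between 0.250 and 0.998. As the genes were picked by likeness over all 7 pools, their shared directions and extreme pools largely follow from the choice. How near the nearest genes of other genes lie was not computed, and nothing about shared control follows from these patterns.

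**Figure D4:**
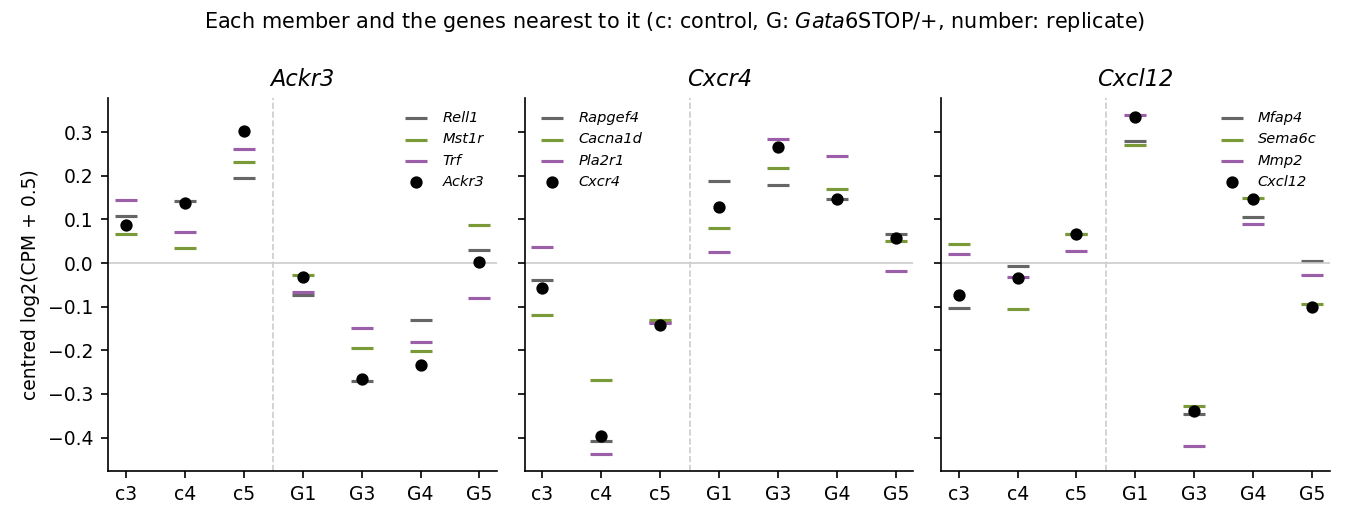
Centred log2(CPM + 0.5) of *Ackr3*, *Cxcr4* and *Cxcl12* (black points) and of the 3 genes nearest to each (coloured bars) in the 3 control (c) and 4 Gata6STOP/+ (G) pools, numbered by replicate. *Ackr3* and its nearest genes are lower on average to the right of the dashed line, *Cxcr4* and its nearest genes are lowest in control replicate 4, and *Cxcl12* and its nearest genes are highest in Gata6STOP/+ replicate 1.

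The direction of both receptor differences was the same under each of the 17 other settings of the analysis. As the groups did not overlap for either receptor, removing 1 pool or changing the added constant could not reverse it. For *Ackr3* the log2 fold change without 1 pool ran from −0.35 to −0.24, and for *Cxcr4* from 0.25 to 0.42, where the limma adjusted *P*-value stayed between 0.339 and 0.675 for the former and between 0.409 and 0.626 for the latter. *Ackr3* was called under 1 of the 17 settings, edgeR's likelihood ratio fit that adds the replicate number (0.801% of all genes called, and 0.0882% by the quasi-likelihood fit of the same kind). *Cxcr4* was called under 0. The sign of the *Cxcl12* difference changed under 6 of the 17.

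**Figure D5:**
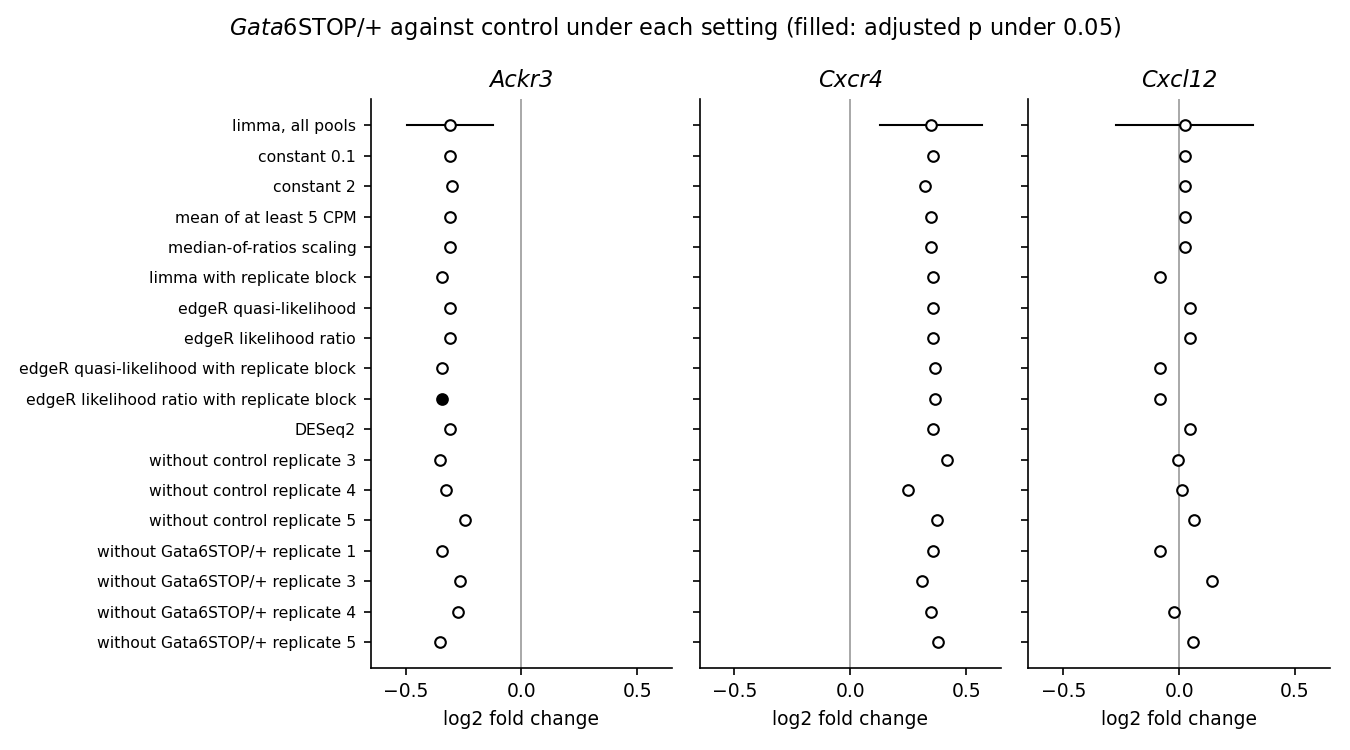
Log2 fold change (Gata6STOP/+ against control) of *Ackr3*, *Cxcr4* and *Cxcl12* under each setting, with the 95% interval of limma over all pools in the top row and filled points for an adjusted *P*-value under 0.05. *Ackr3* stays left of 0 and *Cxcr4* right of 0 in all rows, 1 point of *Ackr3* is filled, and *Cxcl12* crosses 0.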

How the data were processed

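RNA of 7 pools was sequenced from 1 end over 60 bases. Per the methods, the authors used Cutadapt v1.18 for trimming and RSEM v1.2.3 against Ensembl genes of GRCm38 for quantification. A gene was kept if at least 3 samples had 1 CPM or more, and TMM scaling was done in edgeR v3.32.1. The deposited values are TMM-normalized CPM, and 100% came out as whole multiples of 1 read within 0.001 reads, so reads were recovered. In 3 pools the smallest value stands for 2, 4 or 6 reads. All columns were used.

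Groups came from the sample titles. Genes were tested with limma 3.58.1 (R 4.3.3, mean-variance trend, two-sided, no covariates, Benjamini-Hochberg adjustment), and exact permutation tests (35 groupings) of *Gata6* and the 3 members were made with scipy 1.17.1. Alternatives were constants of 0.1 and 2, a minimum mean of 5 CPM, median-of-ratios scaling, the replicate block, edgeR 4.0.16, DESeq2 1.42.0 and leaving out each pool. The limma, edgeR and DESeq2 fits were tested on simulated reads. Named genes are the members, *Gata6*, the 4 listed genes of each pathway list with the smallest unadjusted *P*-value at a mean of at least 1 CPM, and the 3 genes nearest each member, and marker lists are given as sums. Of the genes this rule takes, 1 is not reported here. Members and lists were chosen with earlier results of these data known, and ratios to marker sums after the values were seen. The strand setting of the counting is not given in the sources used here.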

Additional observations from a re-analysis of the deposited data

How the results depend on the processing

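No setting changed the direction of *Ackr3* or *Cxcr4*, and with groups that did not overlap, leaving out a pool could not change it. *Ackr3* passed the threshold under 1 of 17 settings, the likelihood ratio fit of edgeR with replicate block, at a log2 fold change of −0.34 (adjusted *P*-value=0.0190). The labels do not say whether the replicate numbers pair the pools. Over all genes, same-numbered pools did not deviate together (correlations of −0.0084, −0.12 and −0.0016 for replicates 3, 4 and 5). These correlations use values centred within each small group, and they cannot exclude a pairing that touches only some genes. The main fit used no pairs, and whether a blocked fit suits these pools better was not tested. The study itself called both *Gata6* and *Ackr3* decreased, with −0.42 as the log2 fold change of *Gata6*. Here edgeR's likelihood ratio fit gave −0.42 for *Gata6* with the replicate block and −0.34 without it. For *Ackr3* these values were −0.34 and −0.31. Unblocked limma without Gata6STOP/+ replicate 1 also gave −0.42 for *Gata6*. The methods do not say whether the authors' edgeR model had a block. Gata6STOP/+ replicate 1 has no control of its number and adds nothing to a blocked fit. The log2 fold change of *Cxcl12* was −0.084 in all 3 fits with the replicate block, and ran from −0.084 to 0.14 with 1 pool left out, negative without control replicate 3 or Gata6STOP/+ replicate 1 or 4. The count of genes past the threshold, 0, was 1 with a constant of 0.1, 105 with edgeR's likelihood ratio test, 88 with DESeq2, and 14, 13 and 118 with the replicate block in limma and in edgeR's quasi-likelihood and likelihood ratio tests. It ran from 0 to 13 with 1 pool left out, the highest without control replicate 4. The cause of these differences was not tested.

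Over 25 other named genes and 421 values, 390 kept direction and side of the threshold, 1 (*Gata6*, likelihood ratio test with the replicate block) passed it and 30 changed sign. With the replicate block, in limma and edgeR's quasi-likelihood and likelihood ratio tests, *Mfap4* was at −0.063, −0.062 and −0.062, *Pf4* at −0.0198, −0.0191 and −0.0178, and *Ppbp* at −0.116, −0.137 and −0.137. In edgeR's quasi-likelihood and likelihood ratio tests and DESeq2, *Mmp2* was at 0.0149, 0.0149 and 0.0157 and *Sema6c* at 0.0160, 0.0155 and 0.0162. With 1 pool left out, *Ccl25* ran from −0.052 to 0.19, *Ccl9* from −0.050 to 0.58, *Cx3cr1* from −0.13 to 0.23, *Mfap4* from −0.063 to 0.15, *Mmp2* from −0.12 to 0.13, *Pf4* from −0.0198 to 0.33, *Ppbp* from −0.116 to 0.43 and *Sema6c* from −0.092 to 0.11. Without a change of sign, *Dpp4* ran from −0.57 to −0.12, *Mif* from −0.32 to −0.093, *Hmgb1* from 0.052 to 0.18, *Ackr1* from −0.35 to −0.063 and *Pla2r1* from 0.18 to 0.42. *Cxcl14* gave no value under any setting.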
